A study of Mus musculus with 244 samples.

Results

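The type I interferon response genes described here are 37 genes that cells switch on after interferon alpha or beta, measured in single macrophages of the mouse aortic arch. They were chosen by symbol from a list, and all 37 were among the 24475 genes of the table, in which 8840 genes were at 0 in every library. The regression group holds 116 libraries: arches of Apoe-/- donors kept 16 weeks on a high fat diet were grafted into WT mice on chow, and the grafts were taken 3 days later. The baseline group holds 128 libraries from Apoe-/- donors fed the same diet for 16 weeks and not grafted. Both groups are CD45+CD11b+F4/80+ sorted cells, captured singly on a microfluidic chip, with 1 cell a library. Surgery, the diet change, the WT host and the cells it can add to a graft all came with regression, so their shares in a difference cannot be told apart. The labels name no animal, and give neither strain, sex nor age, so each group counts as 1 sample and no test between them was made.

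Type I interferons bind a receptor made of Ifnar1 and Ifnar2, whose kinases Jak1 and Tyk2 phosphorylate Stat2. With Irf9 it takes part in a complex that binds a short element, the interferon-stimulated response element, in front of antiviral genes. Macrophages are known both to make these interferons after sensing nucleic acids and to respond to them.

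The response element can be read in front of several of the members. Its core, searched on both strands as GAAA, any 2 bases and GAAA again (TTTC, any 2 bases and TTTC on the other strand), in windows of 250 bases before to 50 bases after each gene start, was present for 17 of the 26 members with a RefSeq window (65.4%). Over all 27025 genes with a window, 3.99% held it. Upstream of the start itself it was present for 13 of 26 members (50%) and 3.46% of all genes. A match of letters is a description and not a bound site. The 9 stretches below, from RefSeq on GRCm38.p6 and written 5′ to 3′ along the gene, come from the members with the core before the start that at least 3 of the 5 baseline cells with the most interferon response genes listed. They show the core, in capitals, with 25 bases on each side.
Ifit3 (chr19:34583348-34583441, plus strand): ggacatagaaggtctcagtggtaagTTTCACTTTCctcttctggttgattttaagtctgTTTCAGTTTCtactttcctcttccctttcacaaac
Rsad2 (chr12:26456538-26456597, minus strand): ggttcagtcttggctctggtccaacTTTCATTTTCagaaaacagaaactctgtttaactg
Isg15 (chr4:156200850-156200921, minus strand): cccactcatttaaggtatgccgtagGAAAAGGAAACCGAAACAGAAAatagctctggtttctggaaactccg
Cxcl10 (chr5:92349068-92349127, minus strand): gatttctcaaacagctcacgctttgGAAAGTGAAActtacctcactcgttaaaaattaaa
Trim30a (chr7:104465195-104465254, minus strand): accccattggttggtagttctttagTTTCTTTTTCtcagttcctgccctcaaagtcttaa
Bst2 (chr8:71537562-71537627, minus strand): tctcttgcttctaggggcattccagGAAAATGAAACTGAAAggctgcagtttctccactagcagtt
Gbp2 (chr3:142620579-142620638, plus strand): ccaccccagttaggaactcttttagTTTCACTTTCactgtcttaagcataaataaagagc
Ifi203 (chr1:173942493-173942552, minus strand): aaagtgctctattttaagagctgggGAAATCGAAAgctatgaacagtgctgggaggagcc
Ifi205 (chr1:174031855-174031914, minus strand): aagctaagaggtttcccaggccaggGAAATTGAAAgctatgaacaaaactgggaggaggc
Ifit3 holds 2 separate copies and Isg15 a run of 3 overlapping ones, and Bst2 holds 2 that overlap. Ifi203 and Ifi205, neighbouring genes of the p200 family, were identical at 40 of 60 bases of these stretches, which are lined up on the core. Apart from promoters, reads of genes with like transcripts can be split in ways the values do not show. How alike the transcripts are was not measured. Possible partners among the members or beside them are Ifit3 with Ifit3b, Oas1a with Oas1g, Ifitm3 with Ifitm2 and Trim30a with Trim30d. Others are Ifi203, Ifi204 and Ifi205 with Mnda and Mndal.

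The values are RPKM, reads per kilobase of transcript and 1000000 reads. A gene is called listed in a cell here at RPKM 10 or more. After 3 pairs of near-copy baseline libraries (57 and 58, 64 and 65, 70 and 71, r = 0.992 to 0.997, the next pair being at 0.654) were averaged and cells under 1000 genes left out, 113 regression and 125 baseline cells remained. The median cell had 2360 genes at RPKM 1 or more in regression (1142 to 4119) and 2491 at baseline (1095 to 4378). Estimated depth was known for 45 regression cells, with a median of 0.92 M reads (0.442 to 2.285), and for 55 baseline cells, with a median of 1.19 M reads (0.408 to 8.12); M stands for 1000000. Apoe, which WT host cells carry and donor cells lack, was listed in 109 of 113 regression cells and 4 of 125 baseline cells. At least 3 of 7 macrophage markers were above RPKM 1 in 112 regression cells and 122 baseline cells. Classical monocyte markers reached the same mark in 31 regression cells and 21 baseline cells, and nonclassical monocyte markers in 3 regression cells and 23 baseline cells. The summed log2 level of the 6 classical markers ran from 0 to 52.2 in regression and from 0 to 37.8 at baseline, and that of the 6 nonclassical markers from 0 to 18.8 in regression and from 0 to 37.4 at baseline. Their part in the results was not tested. Sample numbers run in 5 stretches of 1 condition each: 1-20, 93-111 and 168-244 in regression, 21-92 and 112-167 at baseline. The labels do not say what a stretch stands for.

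Most macrophages of both groups listed a few interferon response genes, and 5 baseline cells listed far more than any other cell. The number listed in a cell had a lowest value of 1, a median of 5 and a highest value of 16 in regression, against 0, 6 and 26 at baseline. The ranges overlapped over most of their length, and only baseline had cells above 17. Of regression cells, 62 of 113 listed 5 or more members (54.9%, exact 95% binomial interval 45.2 to 64.2), against 101 of 125 at baseline (80.8%, 72.8 to 87.3). With 10 or more members there were 10 regression cells (8.85%, 4.33 to 15.7) and 33 baseline cells (26.4%, 18.9 to 35.0). No regression cell listed 20 or more, where 3 cells would have been 2.65%, and 5 baseline cells did (4%, 1.31 to 9.09). These intervals cover counting error only, not differences between animals.

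**Figure D1:**
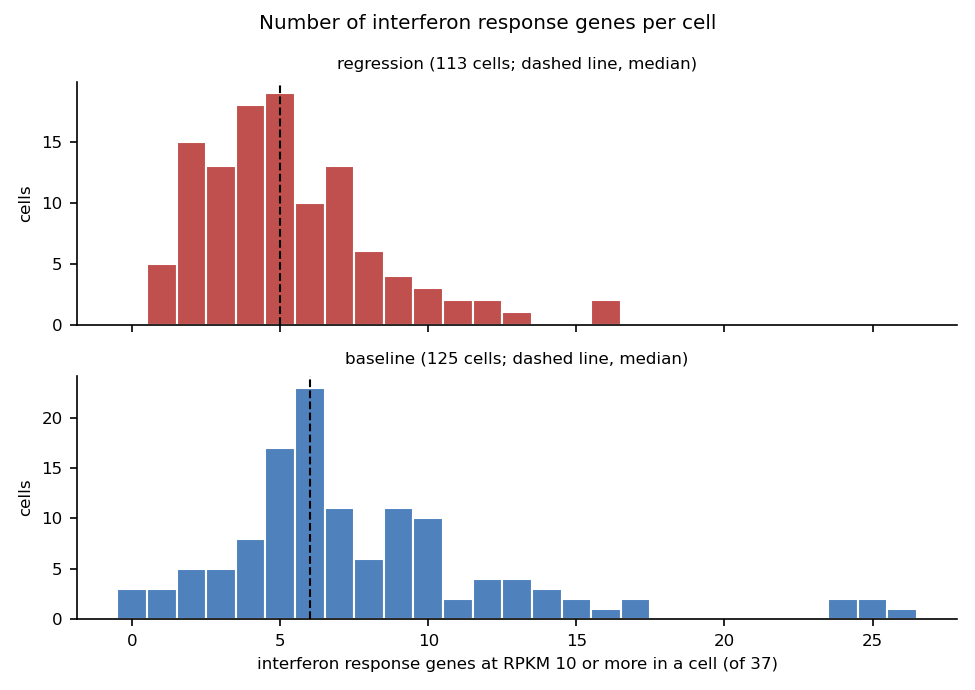
Number of cells (vertical axis) by how many of the 37 interferon response genes were at RPKM 10 or more in a cell (horizontal axis), for 113 regression cells above and 125 baseline cells below, with the median dashed. Regression cells end at 16 genes, and 5 baseline cells stand apart at 24 to 26, beyond a gap above 17.

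The share of cells with 5 or more members was lower in each regression stretch of sample numbers than in each baseline stretch. The share was 55% in cells 1-20, 61.1% in cells 93-111 and 53.3% in cells 168-244 of regression, against 87.0% in cells 21-92 and 73.2% in cells 112-167 at baseline. The median number was 5 in each regression stretch, against 7 and 6 in the baseline stretches. Cells with 10 or more members were 3 of 20, 0 of 18 and 7 of 75 in the regression stretches, against 18 of 69 and 15 of 56 in the baseline stretches. The number of members also moved with the number of genes seen in a cell, with a Spearman correlation of 0.43 over 113 regression cells and 0.33 over 125 baseline cells, both counted from the same library. Among cells with 1000 to 2000 genes, 34.4% of regression and 57.1% of baseline cells listed 5 or more members. In cells with 2000 to 3000 genes the shares were 52% in regression and 85.7% at baseline, and from 3000 genes on 80.6% in regression and 91.2% at baseline.

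Ifitm3, Ly6e and Ifi27l2a were listed in most baseline cells and filled much of these counts. Without them, over the other 34 members, the median was 2 in regression (highest 14) and 4 at baseline (highest 23). No such member was listed in 18 regression cells (15.9%, 9.72 to 24.0) and in 7 baseline cells (5.6%, 2.28 to 11.2). The 10% of cells with the highest summed log2 level over all 37 members held 20.6% of that sum in regression and 23.8% at baseline. On the linear scale, cells were ranked anew by the summed RPKM of the 34 other members. The top 10% of that ranking held 42.2% of this sum in regression and 42.8% at baseline. So a low number of listed members was spread over most cells. The shares held by the top 10% were close in the groups, and were not set beside those of equally sparse genes.

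**Figure D2:**
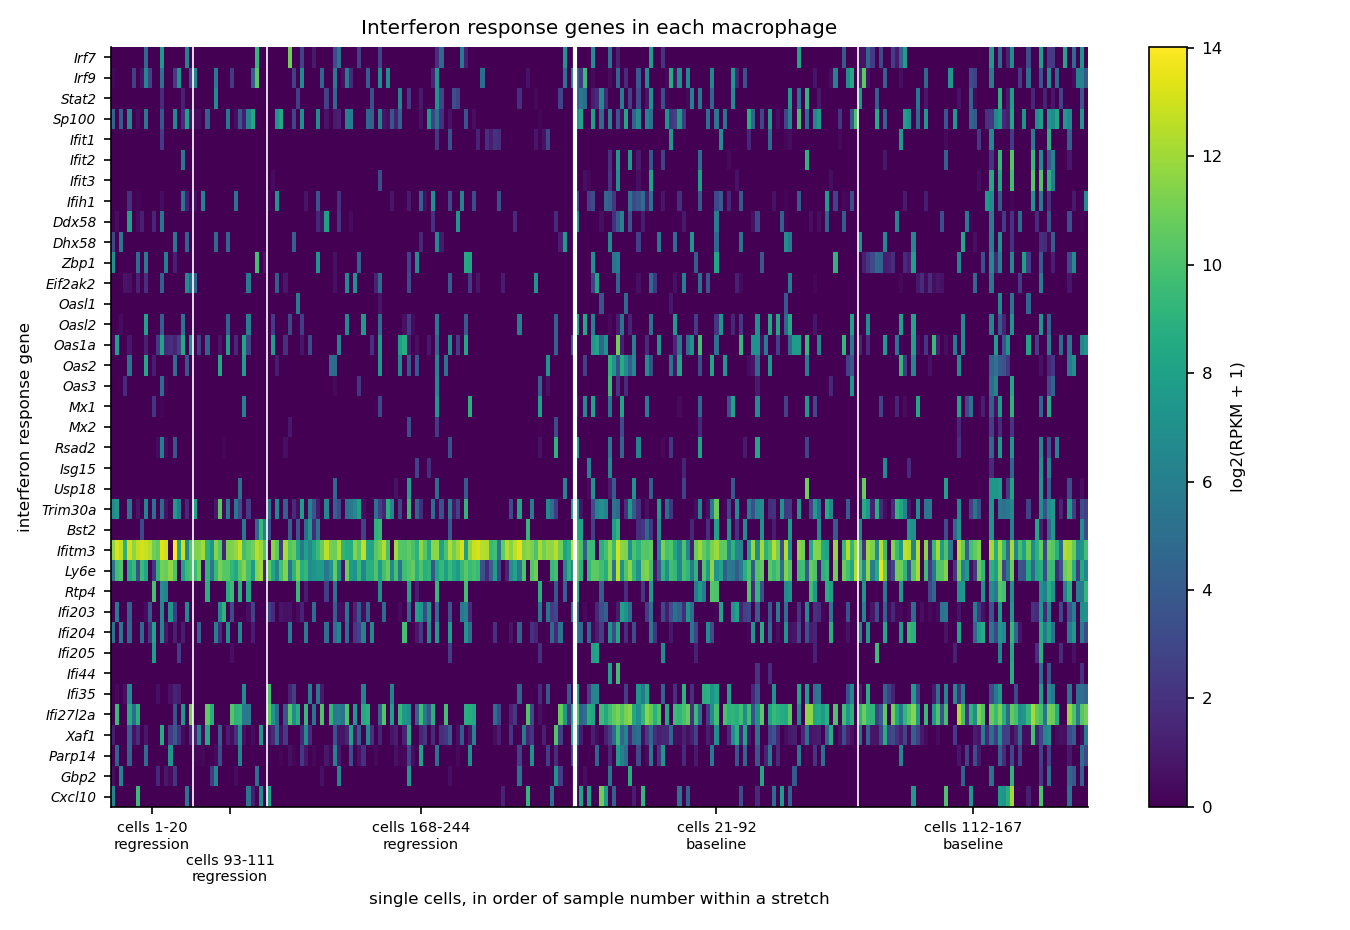
log2(RPKM + 1) of the 37 interferon response genes (rows, by role) in each cell (columns, by sample number within a stretch), regression left of the thick line and baseline right of it. Ifitm3, Ly6e and, at baseline, Ifi27l2a form bright bands, and the 5 baseline cells with 24 to 26 genes appear as vertical streaks between cells 144 and 158.

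The 5 cells were all baseline cells of the stretch 112-167, numbers 144, 146, 149, 156 and 158, or 8.93% of its 56 cells (2.96 to 19.6). They listed 25, 26, 25, 24 and 24 members, and 2 other baseline cells came next with 17 each. They had 4378, 3151, 2500, 2536 and 3060 genes at RPKM 1 or more, against a baseline median of 2491. Their estimated depths were 1.21, 0.829, 1.02 and 1.66 M reads, with none for cell 156. Only cell 144, with the highest number of genes of any cell, lay at the end of the range. Together they listed 36 of the 37 members at least once, 26 members in 3 or more of the 5 and 12 members in all 5. Those 12 are Ifit3, Oasl2, Mx1, Rsad2, Usp18, Trim30a, Ifitm3, Ly6e, Rtp4, Ifi203, Ifi204 and Ifi27l2a. They were chosen by these same values, so their levels are a description.

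The antiviral genes differed in how regularly these cells listed them. Ifit3, which helps to hold foreign RNA, had 347, 346, 883, 1124 and 497 RPKM in cells 144, 146, 149, 156 and 158. It was listed in 5 of the other 120 baseline cells and in 0 of 113 regression cells. Rsad2, the enzyme viperin that makes a chain-terminating nucleotide, had 24.4, 191, 177, 93.7 and 11.4 RPKM in the same order, and was listed in 7 of the other 120 baseline cells and 4 regression cells. Usp18, which takes Isg15 off proteins and damps the receptor, had 173, 231, 288, 162 and 18.9 RPKM, and was listed in 9 of the others. Cxcl10, a chemokine that draws T cells, differed among the 5, with 0, 184, 4332, 1073 and 0 RPKM. Isg15, a ubiquitin-like tag, had 2.14, 0, 25.7, 138 and 72.8 RPKM. Oas1a was at 0 in 4 of the 5, and Mx2 reached RPKM 10 in none. So the 5 cells shared the Ifit3, Rsad2 and Usp18 listing but not the whole list.

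Other interferon-induced genes, none of them members, were also many in these cells. Their list was written with earlier results of these data known. It holds Ifitm2, Oas1g and Mnda, which may share reads with members and were listed in 4, 2 and 5 of the 5 cells. Of 48 such genes, the 5 cells listed 23, 19, 22, 19 and 21, against a median of 9 (highest 21) in regression cells and 10 (highest 19) in the other baseline cells. Only 2 of the 233 other cells reached 19. No type I interferon gene was listed in the 5 cells. Macrophage markers were above RPKM 1 for 5 to 7 of 7 in each. Classical monocyte markers came to 0 or 1 of 6, and nonclassical ones to 1 to 3 of 6, with 2 of the cells at 3. Of 6 plasmacytoid dendritic cell markers they had 1 or 2, Bst2 (itself a member) and Tcf4. Neutrophil markers came to 0 to 2 of 6, and 0 markers of conventional dendritic cells, T or NK cells, B cells, endothelium, smooth muscle or fibroblasts reached RPKM 1. Their log2 values over all genes correlated with one another at 0.554 to 0.604 (median 0.570, 10 pairs), against 0.333 to 0.654 (median 0.490) for pairs of the other cells of that stretch, so they are no near copies of one library. The 8 cells numbered next to them listed 1 to 13 members, with Ifit3 at 0 in 7 of them and at 57.8 RPKM in cell 159. Low values did run on between neighbours for some members: in that stretch, Zbp1 lay above 0 and below RPKM 10 in 13 cells, of which 8 adjoined another such cell, and Eif2ak2 in 10 cells, of which 7 did. What the runs are was not tested, and they were counted only under the mark of RPKM 10.

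**Figure D3:**
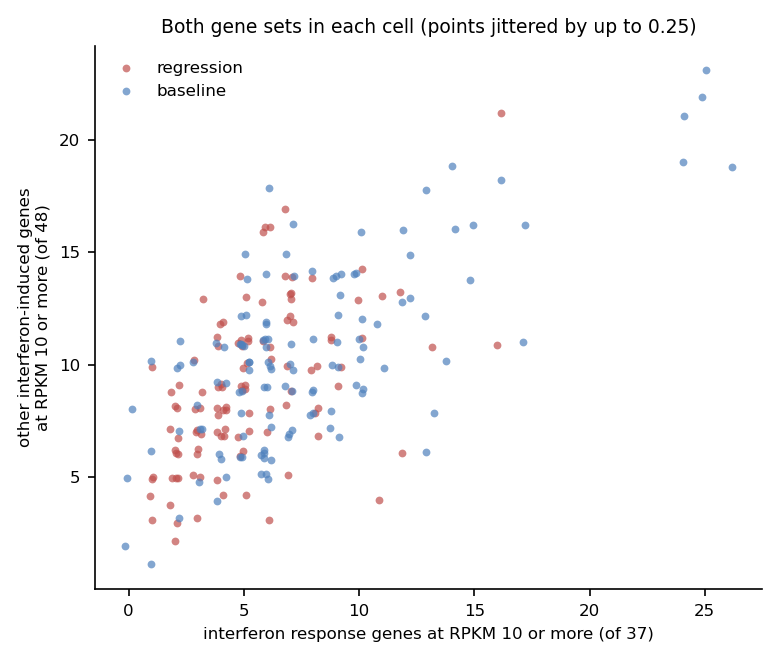
Number of 48 other interferon-induced genes at RPKM 10 or more (vertical axis) against the number of the 37 interferon response genes (horizontal axis), 1 point a cell, regression red and baseline blue, points jittered by up to 0.25. The 5 baseline cells at 24 to 26 members also list 19 to 23 of the other genes, which 2 further cells reach.

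Most pairs of members were only loosely tied to each other over the cells of a group. Over pairs of members listed in at least 5 cells, the median Spearman correlation was 0.08 in regression (25 members, 300 pairs), 0.15 at baseline (36 members, 630 pairs) and 0.08 at baseline without the 5 cells (31 members, 465 pairs). Pairs above 0.3 numbered 5 in regression, 58 at baseline and 10 at baseline without the 5 cells. The 5 cells were chosen for listing many members at once, so lower correlations without them follow from that choice. All pairs share the cells' depth. The closest baseline pair was Ifit2 and Ifit3, neighbours on chromosome 19, at 0.66 over all baseline cells. Both were listed in 9 cells, out of 12 with Ifit2 and 10 with Ifit3, and 4 of these 9 were among the 5. Without the 5 cells the highest correlation of any pair was 0.52. In contrast Cxcl10 and Ifit3 were at 0.08, with 3 cells listing both, all 3 of them among the 5.

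Between the groups, most members had a lower mean in regression, and how many passed a given size depended on the scale. The difference used is the mean of log2(RPKM + 1) over regression cells minus that over baseline cells, a scale that understates the differences of low genes. Of all 37 members, 34 lay below 0 with a median of -0.43, where 34.7% of all 24475 genes did with a median of 0. Of the 29 members listed in at least 5% of all cells, 26 lay below 0, against 52.7% of the 7162 genes at that mark, whose median was -0.03. A difference of -1 or lower was reached by 4 members, Ifi27l2a, Ifi35, Sp100 and Rtp4, against 4.12% of those 7162 genes (1.21% of all genes). The members at -1 or lower numbered 13, with a median of -0.75 over the 37, at a pseudocount of 0.1, and 20, with a median of -1.01, as a log2 ratio of mean RPKM. They numbered 1, with a median of -0.20, at a pseudocount of 10. A difference of 1 or higher was reached by 1 member, Ifitm3, against 3.16% of the 7162 genes (0.923% of all genes). The share of listing cells was lower in regression by 10 points or more for 7 members, Ifi27l2a, Ifi35, Sp100, Rtp4, Oas1a, Stat2 and Mx1, where 7.54% of the 7162 genes were (2.21% of all genes). It was higher by 10 points for 0 members, where 6.21% of the 7162 genes were (1.82% of all genes).

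Of the 37 members, 20 were lower in all 6 pairings of a regression with a baseline stretch, where 9.15% of all genes were. Of the 29 members at the mark of 5%, 15 were, against 16.1% of the 7162 genes. The pairings share stretches and are not independent. Their median member difference ran from -0.51 to -0.21, beside medians of -0.28 to 0.04 over the 7162 genes. Without the 5 cells, 32 of 37 members lay below 0, with a median of -0.27. These cells were chosen for their many members and all lie in baseline, so a smaller difference without them follows from that choice. Stretches of 1 condition differed too. Cells 21-92 minus cells 112-167 gave a member median of -0.07 (all 7162 genes, 0.01), cells 1-20 minus 168-244 gave 0.21 (0.03), and cells 93-111 minus 168-244 gave -0.03 (-0.28). Within baseline, Ifi204 was the one member at -1 or lower (2.26% of the 7162 genes) and 0 members were at 1 or higher (2.15%). Within regression, Ifi27l2a was at -1 or lower in cells 1-20 against cells 168-244 (4.86%) and Oas1a at 1 or higher (9.8%). Rtp4 and Ly6e were at 1 or higher in cells 93-111 against cells 168-244 (3.14%), where 0 members were at -1 or lower (10.8%). Rtp4, Ly6e and Bst2 were at -1 or lower in cells 1-20 against cells 93-111 (5.53%), and 0 members at 1 or higher (20%). For Rtp4, Oas1a, Ifi204, Bst2 and Ly6e, a difference between stretches of 1 condition was thus larger in size than the difference between the groups. The same held for some members short of these marks, such as Irf7, at -0.98 between the baseline stretches and -0.27 between the groups. For Ifi27l2a the differences between stretches of 1 condition were smaller than its difference between the groups.

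**Figure D4:**
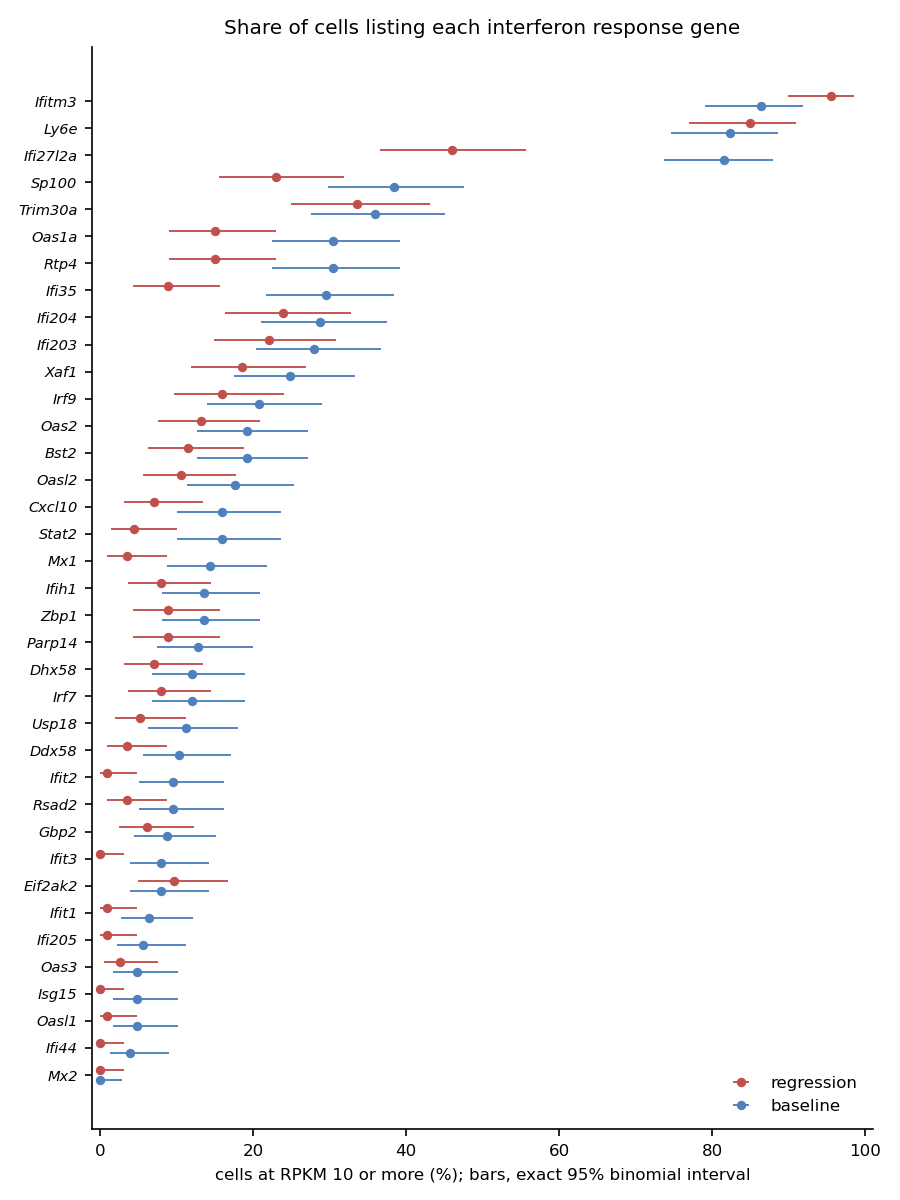
Percentage of cells with each of the 37 interferon response genes at RPKM 10 or more, regression (red) above baseline (blue) for each gene, with exact 95% binomial intervals as bars. The gap is widest for Ifi27l2a, at 46.0% in regression and 81.6% at baseline. The share is lower in regression by 10 points or more for 7 members, against 7.54% of the 7162 genes (2.21% of all genes). It is higher by 10 points or more for 0 members, against 6.21% (1.82%).

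For every member at least 1 cell of each group was at 0, and for 31 members the median was 0 in both groups, so the highest value and the share of listing cells describe them. Among the transcription factors, Sp100 (chr1:85649988-85709998, mm10, gene 20684), a nuclear body protein, reached 363 RPKM in regression and 1080 RPKM at baseline. It was listed in 23.0% of regression cells (15.6 to 31.9) and 38.4% of baseline cells (29.8 to 47.5), with a difference of -1.22, or -0.79 without cells 168-244. Stat2, which carries the signal from the receptor to the nucleus, was listed in 4.42% of regression and 16% of baseline cells (highest 154 and 604 RPKM), with a difference of -0.70. Irf9, the DNA-binding part of the same complex, was listed in 15.9% of regression and 20.8% of baseline cells, with a difference of -0.28 that turned to 0.15 without cells 168-244. Irf7, which drives interferon alpha genes, was listed in 7.96% of regression and 12% of baseline cells. Its difference of -0.27 turned positive without cells 112-167 and as a ratio of means, since 1 regression cell held 2129 RPKM. In all, a factor of this group was listed in 35.4% of regression and 56% of baseline cells.

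The IFIT proteins, which bind viral RNA, separated the groups by rare cells. Ifit3 (chr19:34583531-34588731, gene 15959) had a highest value of 9.20 RPKM in regression and 1237 RPKM at baseline, in cell 154, which listed 8 members and is none of the 5. Ifit2 had a highest value of 49.7 RPKM in regression and 1274 RPKM at baseline, and was listed in 1 regression and 12 baseline cells. Ifit1 was listed in 1 regression and 8 baseline cells, with highest values of 10.5 RPKM in regression and 481 RPKM at baseline. Any of the 3 was listed in 2 regression cells (1.77%, 0.215 to 6.25) and 18 baseline cells (14.4%, 8.76 to 21.8). The 5 cells held 61.9% of the summed baseline RPKM of Ifit3, 53.6% of that of Ifit2 and 49.8% of that of Ifit1. The differences were -0.69, -0.70 and -0.30 for Ifit3, Ifit2 and Ifit1, and -0.34, -0.46 and -0.17 without the 5 cells.

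Sensors of foreign nucleic acid were each listed in few cells of either group. Any of these 5 genes was listed in 33.6% of regression and 41.6% of baseline cells. Ifih1 (the sensor MDA5) was listed in 7.96% of regression and 13.6% of baseline cells, with a difference of -0.43. Ddx58 (RIG-I) had 3.54% in regression and 10.4% at baseline, with a difference of -0.33 that turned positive as a ratio of means. Dhx58, the LGP2 regulator of both, had 7.08% in regression and 12% at baseline. Zbp1, which binds Z-form nucleic acid, had 8.85% in regression and 13.6% at baseline, with a difference of -0.39 that turned positive without cells 112-167 and as a ratio of means. Eif2ak2, the kinase PKR that stops translation on double-stranded RNA, stood apart in being slightly higher in regression, with 9.73% against 8% at baseline and a difference of 0.08.

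The oligoadenylate synthetases, whose product activates RNase L, were all on the lower side in regression, with differences of -0.93 to -0.18 and none at -1. Oas1a was listed in 15.0% of regression cells (9.01 to 23.0) and 30.4% of baseline cells (22.5 to 39.3), with highest values of 440 RPKM in regression and 2085 RPKM at baseline. It was listed in only 1 of the 5 cells, so its baseline share came from elsewhere. Oas2 had 13.3% in regression and 19.2% at baseline, and Oasl2 10.6% in regression and 17.6% at baseline. Oas3 was listed in 3 regression and 6 baseline cells. Oasl1, which in the mouse holds back translation of Irf7, was listed in 1 regression and 6 baseline cells.

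Mx1, a GTPase that traps viral particles, was listed in 3.54% of regression cells (0.973 to 8.82) and 14.4% of baseline cells (8.76 to 21.8). Its highest value was 485 RPKM in regression and 534 RPKM at baseline, and its difference was -0.78, or -0.54 without the 5 cells. Mx2 reached RPKM 10 in no cell, with highest values of 9.76 RPKM in regression and 8.96 RPKM at baseline. Rsad2 was listed in 4 regression and 12 baseline cells, with a difference of -0.46. Among genes of the ubiquitin-like pathway, Isg15 was listed in 0 regression cells, where 3 cells would have been 2.65%, and 6 baseline cells, 3 of them among the 5. Usp18 was listed in 5.31% of regression and 11.2% of baseline cells. Trim30a, a ubiquitin ligase that limits Toll-like receptor signalling in the mouse, was the one widely listed gene here, in 33.6% of regression and 36% of baseline cells, with medians of 0.366 RPKM in regression and 2.45 RPKM at baseline.

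The membrane proteins held Ifitm3, the one member at 1 or higher. Ifitm3 (chr7:141009586-141010770, gene 66141), which blocks fusion of viruses in endosomes, had a lowest value of 0, a median of 2115 and a highest value of 16600 RPKM in regression, against 0, 891 and 9017 RPKM at baseline. The ranges overlapped. Mean log2 levels were 10.39 (SD over cells 2.73) in regression and 8.48 (SD 3.74) at baseline, a difference of 1.92. It was higher in all 6 pairings of stretches (1.65 to 2.72), and 0.99 as a log2 ratio of mean RPKM. Its neighbour Ifitm2, no member, was also higher, with a difference of 1.42, and the reads of the pair may be split between them.

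Ly6e, a lipid-anchored surface protein that many interferon-treated cells carry, had medians of 456 RPKM in regression and 481 RPKM at baseline. Its difference of 0.17 changed sign in 4 of 13 other settings, among them leaving out cells 93-111 or cells 112-167. Rtp4 (chr16:23520291-23614222, gene 67775), which helps receptors reach the membrane, reached 966 RPKM in regression and 1250 RPKM at baseline. It was listed in 15.0% of regression (9.01 to 23.0) and 30.4% of baseline cells (22.5 to 39.3), with a difference of -1.11. That difference was -0.56 without cells 168-244, and 1 of 6 pairings had the other sign. Bst2, the tetherin that holds budding viruses at the surface, was listed in 11.5% of regression and 19.2% of baseline cells, with a difference of -0.68.

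Ifi203, Ifi204 and Ifi205 belong to the p200 family of nuclear DNA-binding proteins. Ifi203 was listed in 22.1% of regression and 28% of baseline cells, and Ifi204 in 23.9% of regression and 28.8% of baseline cells, with differences of -0.50 and -0.61 for these 2 genes. Ifi205 was listed in 1 regression and 7 baseline cells, 3 of them among the 5. The family was thus listed in many cells of both groups, in 38.9% of regression and 45.6% of baseline cells for any of the 3.

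Ifi27l2a (chr12:103442167-103443680, gene 76933), a small membrane protein strongly induced by type I interferon, had the largest difference of the 37. Its lowest value was 0, its median 1.48 and its highest 2072 RPKM in regression, against 0, 515 and 4974 RPKM at baseline. It was listed in 52 of 113 regression cells (46.0%, 36.6 to 55.6) and 102 of 125 baseline cells (81.6%, 73.7 to 88.0). The ranges overlapped. Among the cells that listed it the median was 394 RPKM in regression and 663 RPKM at baseline. Both the share of listing cells and the level in them were thus lower in regression. Mean log2 levels were 3.72 (SD over cells 4.12) in regression and 7.47 (SD 3.82) at baseline, a difference of -3.75. The share was 35%, 38.9% and 50.7% in regression cells 1-20, 93-111 and 168-244, against 81.2% and 82.1% in baseline cells 21-92 and 112-167. The 6 pairings gave -4.92 to -3.24, leaving out the 5 cells gave -3.61, and the log2 ratio of mean RPKM was -1.81.

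**Figure D5:**
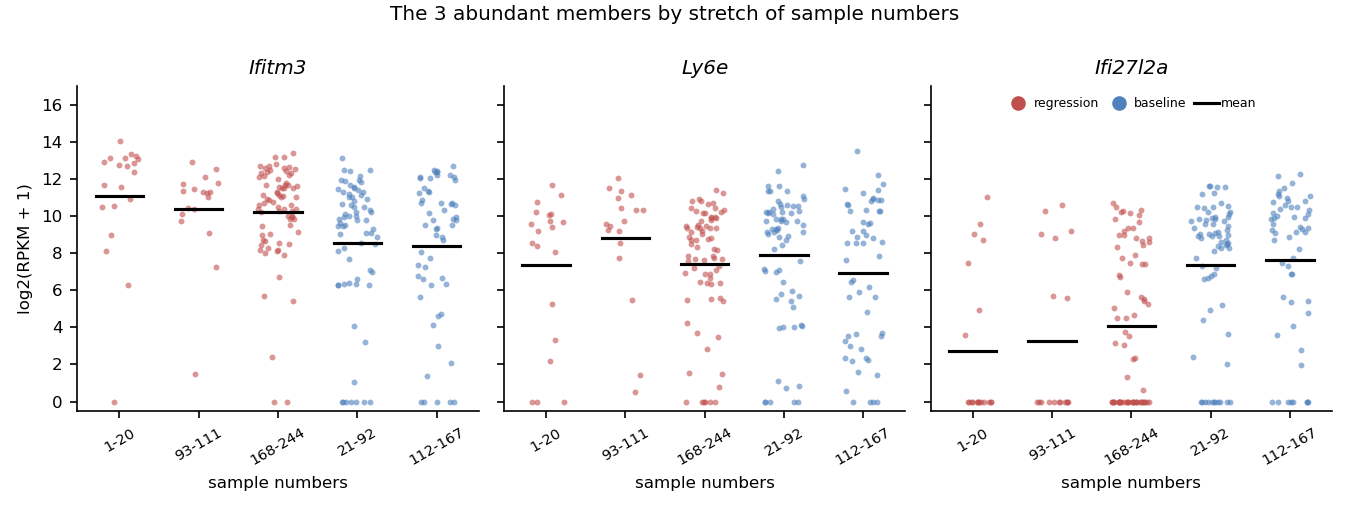
log2(RPKM + 1) of Ifitm3, Ly6e and Ifi27l2a in each cell (points) by stretch of sample numbers, regression stretches (red) left of baseline stretches (blue), with the mean as a bar. Ifitm3 has means of 10.20 to 11.10 in regression and 8.38 to 8.56 at baseline, Ifi27l2a 2.72 to 4.10 in regression and 7.33 to 7.64 at baseline, and the means of Ly6e interleave.

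Ifi35 (chr11:101448407-101458698, gene 70110), an interferon-induced leucine zipper protein, followed at a far lower level. It reached 963 RPKM in regression and 556 RPKM at baseline, so the highest cell was in regression. It was listed in 10 regression cells (8.85%, 4.33 to 15.7) and 37 baseline cells (29.6%, 21.8 to 38.4), with a difference of -1.53 and 6 pairings of -1.87 to -1.35. Xaf1, an antagonist of the apoptosis inhibitor XIAP, was listed in 18.6% of regression and 24.8% of baseline cells, with a difference of -0.55. Parp14, an ADP-ribosyltransferase, had 8.85% in regression and 12.8% at baseline, and its difference of -0.20 turned positive without cells 21-92 and as a ratio of means. Ifi44 was at 0 in every regression cell and listed in 5 baseline cells, 3 of them among the 5. Gbp2, a guanylate-binding protein, was listed in 7 regression and 11 baseline cells, with a difference of -0.03. Cxcl10 was listed in 7.08% of regression cells (3.11 to 13.5) and 16% of baseline cells (10.1 to 23.6), with highest values of 755 RPKM in regression and 4332 RPKM at baseline and a difference of -0.75.

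Upstream of the members, the interferon genes themselves were nearly silent: 14 of 18 type I interferon genes were at 0 in every cell. Ifnb1, the interferon that macrophages make first, was listed in 0 regression cells and 6 baseline cells, 5 of them in cells 21-92 and 1 in cells 112-167, at 69.3 to 585 RPKM. Those 6 cells listed 6 to 15 members and none was among the 5. Among them, cells 27, 28 and 29 adjoin by number, with 141, 155 and 433 RPKM of Ifnb1. What this run is was not tested. Ifna5 was listed in 1 regression cell, at 48.2 RPKM. The receptor chains were widely listed, Ifnar1 in 55.8% of regression and 57.6% of baseline cells and Ifnar2 in 58.4% of regression and 53.6% of baseline cells. Over the 7162 genes listed in at least 5% of all cells, 4.12% were at -1 or lower and 3.16% at 1 or higher. Over all genes the shares were 1.21% and 0.923%. Of the 7 genes for the receptor and its signalling, 2 were at -1 or lower and 0 at 1 or higher. These were Jak1, the receptor kinase, at -1.10 (54.9% of regression and 77.6% of baseline cells), and Irf1, an early transcription factor of interferon signalling, at -1.21 (18.6% of regression and 31.2% of baseline cells).

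The next lists stand beside the same shares, 4.12% of the 7162 genes at -1 or lower and 3.16% at 1 or higher. Over all genes the shares were 1.21% and 0.923%. The lists are counted whole, with no mark on how many cells list a gene. Of 9 feedback inhibitors 1 was at -1 or lower and 0 at 1 or higher. This was Ptpn6, the phosphatase SHP-1, at -1.10, while Pias1, a SUMO ligase, was at -0.36. Among 21 genes that sense nucleic acid and switch interferon genes on, 1 was at -1 or lower and 1 at 1 or higher. Trex1, which degrades cytosolic DNA, was at -1.68, listed in 22.1% of regression and 40.8% of baseline cells. Ikbke, a kinase that activates Irf3 and Irf7, was at 1.84, listed in 40 regression cells (35.4%) and 5 baseline cells (4%). Of 48 other interferon-induced genes 4 were at -1 or lower and 1, Ifitm2, at 1 or higher. The lowest was Lgals3bp, a secreted glycoprotein, at -2.22, listed in 43.4% of regression and 70.4% of baseline cells. The others were Phf11a, Phf11b and Phf11d, 3 related genes that can share reads, at -1.06, -1.09 and -1.19.

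Genes that lean towards interferon gamma, the type II interferon, had 1 of 19 at -1 or lower, Irf1 as above, and 0 at 1 or higher. The shares of the 7162 genes were 4.12% and 3.16%, and those of all genes 1.21% and 0.923%. Irgm1, an immunity-related GTPase, was at -0.61. Of 13 genes of class I antigen presentation 0 were at -1 or lower and 0 at 1 or higher. Below 0 were 12 of them, with a median of -0.42, against 52.7% of the 7162 genes, with a median of -0.03. Psmb9, an immunoproteasome subunit, was at -0.95, listed in 15.0% of regression and 28% of baseline cells, and Psme1, a proteasome activator, at -0.97, with 53.1% of regression and 64% of baseline cells. The 5 cells listed 9 to 12 of these 13 genes, against medians of 6 in regression cells and 7 in the other baseline cells. The ranges overlapped, as the highest was 11 in both of these sets and 43 other cells listed 9 or more.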

How the data were processed

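The authors deposited 1 table of RPKM values for 24475 genes and 244 libraries, and a gene annotation file that gives the symbols. A Fluidigm C1 chip was used to capture cells, cDNA was amplified with the SMARTer kit, and libraries were made with Nextera XT, per the labels' protocols, whose text speaks of islet cells where the other labels say macrophages. The submitters' processing notes name mm10, CASAVA 1.8.2 and FastQC. The sources used here name neither the aligner nor the RPKM program. No molecular identifiers were used, and each value includes amplification noise.

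Columns were matched to samples by the number in the title. Libraries correlating above 0.9 were averaged, and cells with at least 1000 genes at RPKM 1 or more were kept (113 of 116 regression and 125 of 125 baseline). Doublets were not called. Depth was estimated from the step of low values in genes with 1 transcript, and is given where 2 separate sets of these differed by at most 10% (103 of 244 libraries). Differences are of mean log2(RPKM + 1). Each group is 1 sample, so no test, standard error or p-value was made from cells. Intervals of shares are Clopper-Pearson (exact binomial, 95%), and counts of 0 are set beside the share of 3 cells. Positions come from GENCODE vM21 on mm10. Members, gene lists and the mark of 20 or more members were chosen with earlier results of these data known. Members at RPKM 10 in 10% or more of either group's cells are given with values, and of each other list the 2 largest absolute differences among genes at it in 5% or more, besides those past 1 in either direction. Promoter windows were held for 26 of 37 members. The other 11 were not analysed here for motifs. Scripts used Python 3.11.15, numpy 2.4.6, pandas 2.3.3 and scipy 1.17.1, and were tested on simulated data.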

Additional observations from a re-analysis of the deposited data

How the results depend on the processing

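The 8 summary results were recomputed under 16 other settings where they applied. Of these 96 values 83 stayed within 1.5 times the reported one, or for shares within its interval, and 13 moved beyond it, with none changing sign. With RPKM 1 as the mark of a listed gene, cells with 5 or more members made 77.0% of regression and 90.4% of baseline cells, and with RPKM 50 they made 31.0% of regression and 56.8% of baseline cells. Over cells with at least 2000 genes the baseline share was 87.6%. Members at -1 or lower numbered 13 with a pseudocount of 0.1, 1 with a pseudocount of 10, 20 as a log2 ratio of mean RPKM and 2 without cells 168-244, against 4 as reported. The median member difference was -0.75 and -0.20 with the pseudocounts of 0.1 and 10, and -1.01 with the ratio of means. It was -0.27 without the 5 cells that listed 20 or more members, a setting added after the data were seen. That setting takes out only baseline cells with many members, so a smaller difference follows from the choice. The cause of the other moves was not tested. Of 25 members with full values, 19 kept the sign of their difference in all of 13 settings. The exceptions were Irf7, Irf9, Ddx58, Zbp1, Ly6e and Parp14. Depth is unknown for most libraries, a gene at 0 may have been missed at this depth, and animals, chips and stretches cannot be told apart from the cells' condition.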

Other observations

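Among genes that are not members, those whose level followed the number of listed members most closely over the 125 baseline cells included 3 from the other lists above, Mnda, Oas1g and H2-T23, and 7 from none of them. The highest Spearman correlations were those of Slfn1, a Schlafen gene (0.44), and Scamp2, a protein of secretory membranes (0.43). Over the 4773 genes ranked, the median was 0.07 and the top 1% began at 0.29. Then came Mnda (0.38) and Mndal (0.36) of the p200 family, Oas1g (0.38), H2-T23, a nonclassical class I molecule (0.37), Use1, which acts in vesicle transport (0.38), Gm4070 (0.37), Tpst2, a tyrosine sulfotransferase (0.36), and Clec7a, the beta-glucan receptor dectin-1 (0.36). Without the 5 cells with the most members, Slfn1 was at 0.41 and Scamp2 at 0.39. Over the 113 regression cells the values were lower, 0.09 for Slfn1, 0.19 for Scamp2 and 0.32 for Oas1g. All these cells share the link of both measures with depth.

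The regression cells with the most members, numbers 13 and 210 with 16 each, shared 10 of them. Cell 13 listed Irf7 (190 RPKM), Oas1a (289 RPKM) and Rsad2 (66.4 RPKM), and cell 210 listed Mx1 (179 RPKM), Stat2 (154 RPKM) and Rtp4 (675 RPKM). Ifit3 and Isg15 were listed in neither.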
